A study of Mus musculus with 9 samples.

Results

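The genes described here are those that encode the chains of the collagens and laminins, the structural proteins of the extracellular matrix. They were chosen by symbol from a count table of the whole transcriptome: every gene whose mouse symbol has the form of a collagen alpha chain (Col, a type number, the letter a and a chain number) or of a laminin alpha, beta or gamma chain was taken. This gave 55 of the 56980 genes in the table, 44 of them collagens and 11 laminins. The symbol rule used no measured value, but the members were chosen with earlier results of these data known. RNA was sequenced from cultured mouse oligodendrocyte progenitor cells (OPCs), the precursors of the myelin-forming cells of the brain, in 3 groups of 3 libraries. Every group carried the genotype Trp53 -/-, which removes the tumour suppressor p53, and the growth factor PDGF-AA was in the medium at 10 ng/mL. BB-p53n EZH2i were p53-null OPCs made to express PDGF-BB and given 5 µM of tazemetostat, an inhibitor of the methyltransferase EZH2, for 48 hours. BB-p53n DMSO were p53-null OPCs made to express PDGF-BB and given the vehicle DMSO, and p53n were p53-null OPCs without PDGF-BB and, per the labels, without vehicle. The study asked what PDGF-BB does in p53-null OPCs and, separately, what EZH2 inhibition does in the PDGF-BB cells. The labels describe the cells as mutant primary lines, name neither the vector that carries PDGF-BB nor its promoter, and do not state if libraries within a group stem from separate cultures. All p-values below thus describe variation among libraries only, and this variation may be technical.

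Collagens are trimers of alpha chains wound into a triple helix. The fibrillar types form fibres in connective tissue, the fibril-associated types decorate those fibres, and collagen IV forms the sheet of basement membranes. Laminins are trimers of 1 alpha, 1 beta and 1 gamma chain that start basement membrane assembly and bind receptors such as dystroglycan and integrins. In brain, vascular cells make much of this matrix, and OPCs and glioma cells contact it along vessels. EZH2 is the catalytic subunit of the Polycomb complex that writes the repressive histone mark H3K27me3.

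Collagen IV genes lie in head-to-head pairs, each pair reading away from a shared start region, and these regions are shown because the pairs differed in how their partners moved. Starts were taken from the GENCODE annotation of GRCm38, and the bases from the RefSeq promoter table of GRCm38, which covered 40 of the 55 genes. The first exons of Col4a1 (minus strand) and Col4a2 (plus strand) shared 22 bases at chr8:11312805-11312826, printed on the plus strand. The starts of Col4a4 (minus strand) and Col4a3 (plus strand) were 71 bases apart, with chr1:82586850-82586920 between them, printed on the minus strand. Col4a6 (minus strand) and Col4a5 (plus strand) started 1308 bases apart, and the 250 bases before the start of Col4a6 (chrX:141474077-141474326, minus strand) and 216 bases before that of Col4a5 (chrX:141475169-141475384, plus strand) are given. Capitals mark the GC box GGGCGG or the CCAAT box on either strand.
Col4a1 and Col4a2: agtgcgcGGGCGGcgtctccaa
Col4a4 and Col4a3: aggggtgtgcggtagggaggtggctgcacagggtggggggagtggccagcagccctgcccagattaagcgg
Col4a6: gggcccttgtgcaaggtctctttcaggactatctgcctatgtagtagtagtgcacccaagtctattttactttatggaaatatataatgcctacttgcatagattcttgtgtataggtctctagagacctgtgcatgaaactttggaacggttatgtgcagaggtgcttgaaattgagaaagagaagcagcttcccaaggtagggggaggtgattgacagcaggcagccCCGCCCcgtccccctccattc
Col4a5: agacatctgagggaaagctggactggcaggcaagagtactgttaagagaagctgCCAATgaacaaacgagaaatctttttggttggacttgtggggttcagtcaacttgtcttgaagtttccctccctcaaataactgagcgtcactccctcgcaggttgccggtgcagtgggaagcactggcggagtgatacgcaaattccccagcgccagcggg
The 40 genes had 44 promoters in the table, each taken as 250 bases before to 50 after a start. A GC box was present in 26 of the 44 (59.1%) and in 35.7% of all 32851 promoters of that table. CCAAT was present in 14 of the 44 (31.8%) and in 37.4% of all promoters, and TATAAA in 5 of the 44 (11.4%) and in 13.6% of all. The stretch between Col4a4 and Col4a3 held none of the 3 motifs. The Col4a1 promoter had 37 CpG dinucleotides and that of Col4a2 33, against a median of 7 over all promoters, whereas Col4a6 had 3. These matches describe the letters of the windows only.

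Library totals were between 19471768 and 34557109 counts. Levels are in CPM (library totals adjusted by TMM), and levels of single genes were compared with each other as FPKM (CPM per kilobase of exon). Sums over genes and shares of such sums are in CPM, without adjustment for length. Trp53 was at 13 to 15.2 CPM in BB-p53n EZH2i, 12 to 14.9 CPM in BB-p53n DMSO and 6.77 to 8.33 CPM in p53n libraries, and the labels do not say which part of the gene was deleted, so its counts check nothing. The mouse Pdgfb gene was at 0.143 to 0.238 CPM in BB-p53n EZH2i, 0.119 to 0.237 CPM in BB-p53n DMSO and at most 0.0416 CPM in p53n libraries. Sex-linked genes differed between the cultures: Xist was at 2.82 to 17.4 CPM in BB-p53n EZH2i, 46.2 to 65.0 CPM in BB-p53n DMSO and 2777.3 to 3100.8 CPM in p53n libraries. The Y-linked Ddx3y was at 5.86 to 13.2 CPM in BB-p53n EZH2i, 43.0 to 53.6 CPM in BB-p53n DMSO and 0.208 to 0.715 CPM in p53n libraries. Mitochondrial genes took 1.34 to 1.54% of counts in BB-p53n EZH2i, 2.44 to 2.62% in BB-p53n DMSO and 4.46 to 5.76% in p53n libraries. These differences also separate inhibited from vehicle libraries, and their part in the members' differences was not tested. PDGF-BB, the vehicle and the origin of the cultures therefore cannot be told apart in a comparison with p53n. Of the OPC markers, Olig1, Olig2, Pdgfra and Cspg4 were at 287.0 CPM or more on average in every group, but Sox10 was at 458.9 ± 9.6 CPM in BB-p53n EZH2i, 299.5 ± 16.4 CPM in BB-p53n DMSO and only 2.21 ± 0.292 CPM in p53n libraries (mean ± SD, n = 3 each). The 5 astrocyte markers summed to 25.7 to 26.8 CPM in BB-p53n EZH2i, 26 to 29 CPM in BB-p53n DMSO and 250.4 to 309.5 CPM in p53n libraries. The similar sums of the PDGF-BB groups hide opposite differences. Mlc1 averaged 20.3 CPM in BB-p53n EZH2i and 9.75 CPM in BB-p53n DMSO libraries, and Slc4a4 5.07 and 16.9 CPM. The 5 neuronal markers, of which Tubb3 and Dcx are also made by progenitors, summed to 174.1 to 179.4 CPM in BB-p53n EZH2i, 298.3 to 318.0 CPM in BB-p53n DMSO and 535.8 to 544.2 CPM in p53n libraries. Matrix-rich vascular cells left little trace. The fibroblast and mural cell markers summed to 1.47 to 2.42 CPM in BB-p53n EZH2i, 1.05 to 1.72 CPM in BB-p53n DMSO and 3.03 to 3.91 CPM in p53n libraries, and the fibroblast marker Dcn had 1 count in each group. The 7 endothelial markers summed to 18.4 to 19.8 CPM in BB-p53n EZH2i, 18.9 to 22.2 CPM in BB-p53n DMSO and 14.9 to 18.6 CPM in p53n libraries, almost all of it from Flt1 and Kdr. Cdh5 had 0 counts in BB-p53n EZH2i, 1 in BB-p53n DMSO and 0 in p53n libraries, and Cldn5 had 2 counts in BB-p53n EZH2i, 2 in BB-p53n DMSO and 0 in p53n libraries. The 5 microglial markers summed to at most 2.84 CPM in any library. In such bulk samples fewer cells of a type and less RNA per cell cannot be told apart.

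Of the 55 genes, 40 (32 collagens and 8 laminins) had enough counts to be tested, and 26 reached an average log2 CPM of 1. Per length, the order of levels differed between groups. In BB-p53n EZH2i libraries Lamc1, the common laminin gamma chain, led with 30.2 ± 1.98 FPKM, followed by Col16a1 (13.2 ± 1.38), Lama4 (11.8 ± 0.334) and Col11a1 (11.4 ± 1.25; mean ± SD, n = 3 here and below). These last 3 did not differ beyond their spread. In BB-p53n DMSO libraries Col11a1 led with 42.9 ± 3.38 FPKM, then Lamc1 with 31.4 ± 1.43, Lama4 with 14.2 ± 0.26 and Col16a1 with 10.8 ± 1.06 FPKM. Col9a1 (8.43 ± 0.586 FPKM) and Col19a1 (8.16 ± 0.869 FPKM) came next and overlapped in spread. In p53n libraries Lamc1 (16.7 ± 1.01 FPKM), Col9a3 (16.5 ± 0.699 FPKM) and Col11a1 (15.4 ± 0.838 FPKM) lay close together, ahead of Col16a1 at 9.95 ± 0.828 FPKM. The chains of collagens I and III, the bulk of connective tissue, were near absent: Col1a1 stayed at or under 0.185 FPKM on average in each group, Col1a2 had 0 counts in BB-p53n EZH2i, 2 in BB-p53n DMSO and 0 in p53n libraries, and Col3a1 had 11 in BB-p53n EZH2i, 26 in BB-p53n DMSO and 3 in p53n libraries.

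In BB-p53n DMSO against p53n cells, the matrix genes went both ways. Col19a1, Col25a1, Col4a4, Lama4, Lamb3, Col11a1, Col5a1, Col4a2, Lamc1, Col4a1, Lama1, Col5a3, Lama5 and Col9a1 were higher, in order of fold change, from 4.95 to 0.37 on the log2 scale. Among those lower were Col4a6, Col5a2, Col14a1, Lamb2, Col9a3, Col12a1, Col4a5, Col11a2, Col20a1, Col28a1, Col9a2, Col23a1, Col22a1, Col27a1, Col4a3, Lamb1 and Col6a2, from -5.04 to -0.35. At an adjusted p under 0.05 (edgeR quasi-likelihood test, Benjamini-Hochberg over all 17001 genes tested), 14 of the 40 tested members (35.0%) were higher, against 35.3% of all genes, and 18 (45.0%) were lower, against 34.0%. The median log2 fold change was -0.24 over the 40 and -0.02 over all genes, and 31 of the 40 had groups that did not overlap, against 76.1% of all genes. Members such as Col4a6 and Col5a2 passed the filter on low counts through the p53n libraries alone, so these counts are a description. The astrocyte markers and Sox10 moved in the same comparison (5 of 5 astrocyte markers lower, Sox10 at log2 fold change 7.07), and their part in the members' differences was not tested.

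In BB-p53n EZH2i against BB-p53n DMSO cells, Col4a2, Col22a1, Col4a1, Col23a1, Col6a2, Col18a1, Lamb1, Col5a1, Lamb2, Col27a1, Lama1 and Col16a1 were higher, from 1.73 to 0.29 on the log2 scale. Col4a3, Col11a1, Col25a1, Col19a1, Col28a1, Col12a1, Col6a1, Col4a4, Col9a1, Col4a5 and Lama4 were lower, from -2.12 to -0.26. These were 12 higher (30.0% of the 40, against 37.3% of all genes) and 11 lower (27.5%, against 35.6%). In this fit a smaller share of the members passed the threshold than of all genes. The median log2 fold change was 0.10 over the 40 and 0.02 over all genes, and 21 of the 40 had groups that did not overlap, against 75.3% of all genes. Across genes this comparison followed base composition: over 12786 genes the log2 fold change had a Spearman rho of 0.73 with GC content, and over the 40 members of 0.51, where all points share the same 6 libraries. With a smooth trend on GC content and length removed, the members split into 6 higher (15%, against 29.0% of all genes) and 18 lower (45.0%, against 28.9%), with a median of -0.32. The share called lower then lay above that of all genes. Of the members called before, Lama4 and Col16a1 (2) changed sign and 5 others lost the call. Of those not called before, 7 gained the call, and 5 changed sign: Col9a3 and Col5a3, both then called lower, and Col7a1, Col2a1 and Lamb3, not called either way. The value with the trend removed is therefore given beside the inhibitor's fold changes below. In BB-p53n DMSO against p53n that rho was only 0.14 over all genes and -0.05 over the members. With the trend removed, 13 members were higher there (32.5%, against 33.5% of all genes) and 18 lower (45.0%, against 38.4%). In BB-p53n EZH2i against p53n the rho was 0.56 over all genes and 0.12 over the members.

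**Figure D1:**
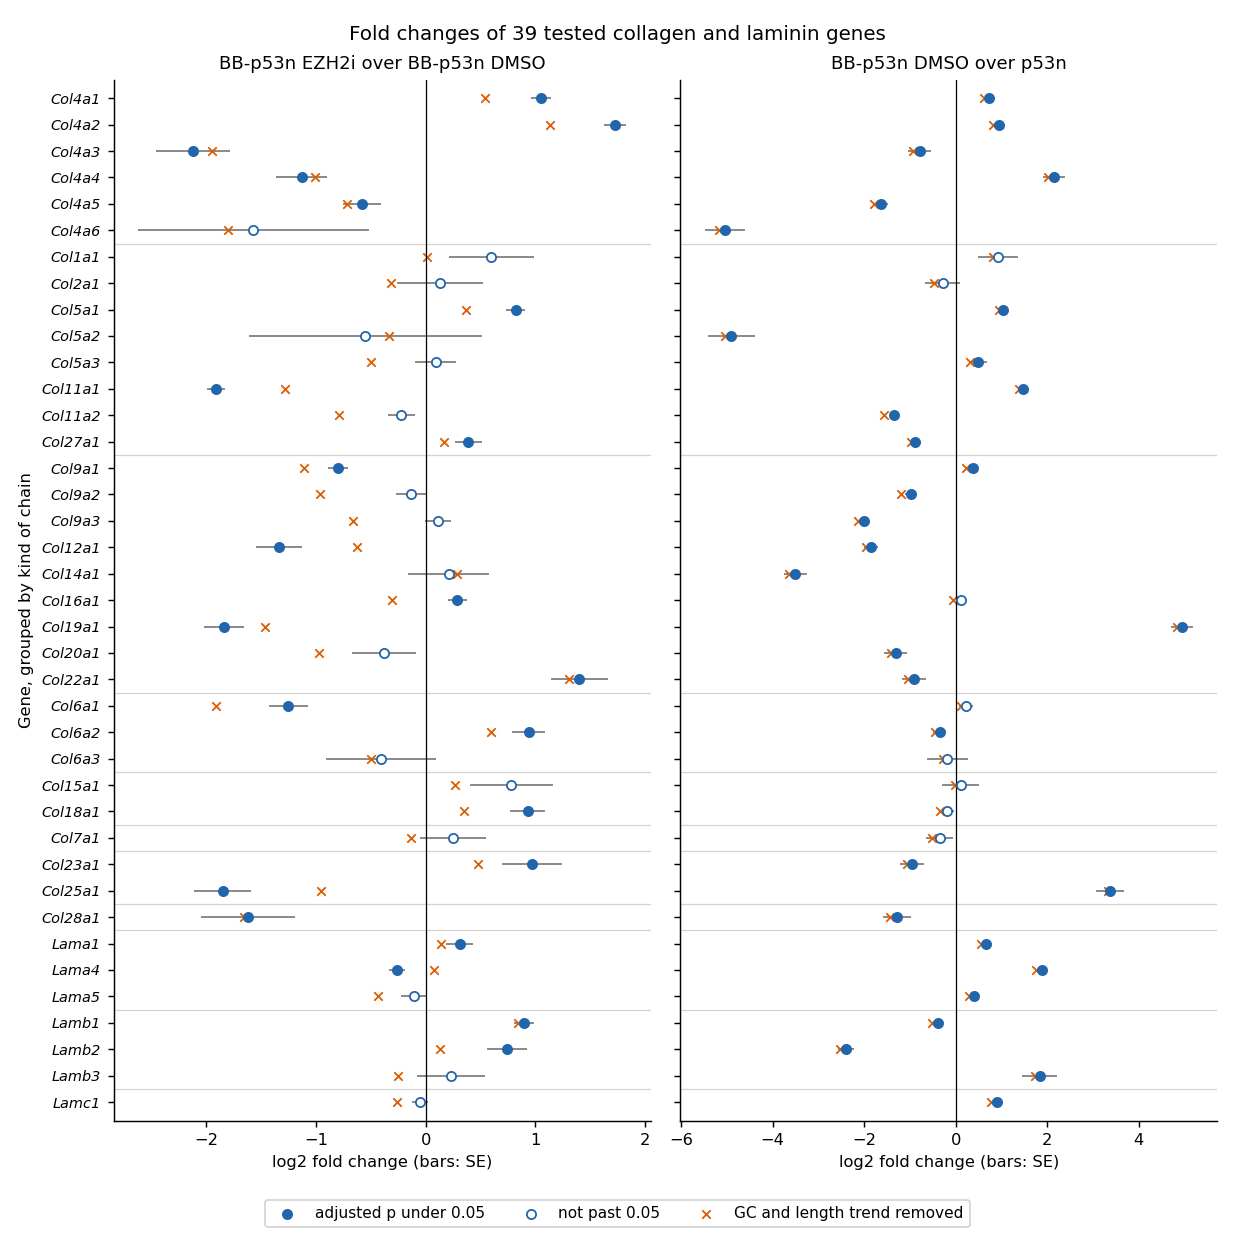
Log2 fold changes (horizontal axis, bars are SE) of 39 of the 40 tested genes, grouped by kind of chain, for BB-p53n EZH2i over BB-p53n DMSO (left) and BB-p53n DMSO over p53n (right); filled circles passed an adjusted p of 0.05, open circles did not, and crosses are the values with the GC and length trend removed. The crosses sit close to the circles on the right, while on the left many lie further to the left, and over the 40 tested genes 12 higher and 11 lower became 6 higher and 18 lower. Over all genes tested, 37.3% higher and 35.6% lower became 29.0% and 28.9%.

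Of the 6 collagen IV chains, 3 were higher and 3 lower in BB-p53n DMSO against p53n cells, beside 35.3% higher and 34.0% lower over all genes. Col4a1 and Col4a2, which join in the trimer found in nearly all basement membranes, were both highest in inhibited cells. Col4a1 (ENSMUSG00000031502, chromosome 8, 11248423 to 11362826 on the minus strand of GRCm39) was at 70.4, 68.6 and 68.4 CPM in BB-p53n EZH2i and 32.1, 36.6 and 31.8 CPM in BB-p53n DMSO libraries. Its p53n values were 20.8, 22.1 and 17.3 CPM. Col4a2 was at 30.8, 30.3 and 30.3 CPM in BB-p53n EZH2i and 8.99, 9.59 and 8.85 CPM in BB-p53n DMSO libraries. Without PDGF-BB, p53n libraries gave 4.3, 4.95 and 4.92 CPM. For both genes the 3 groups formed 3 separate steps with no overlap. In BB-p53n EZH2i against BB-p53n DMSO cells Col4a1 rose (log2 fold change 1.05 ± 0.09 SE, adjusted p = 1.8e-09; 0.54 with the trend removed), and so did Col4a2 (log2 fold change 1.73 ± 0.10 SE, adjusted p = 9.4e-12; 1.13). Both had also been higher in BB-p53n DMSO relative to p53n (Col4a1: log2 fold change 0.74 ± 0.09 SE, adjusted p = 5.4e-07; Col4a2: log2 fold change 0.96 ± 0.11 SE, adjusted p = 3e-07). Per length, the ratio of Col4a1 to Col4a2 within a library averaged 2.01 ± 0.0137 in BB-p53n EZH2i, 3.25 ± 0.117 in BB-p53n DMSO and 3.79 ± 0.606 in p53n libraries, so the partner chains moved together but not by the same amount.

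The second pair, Col4a3 and Col4a4, whose products join that of Col4a5 in the network of the kidney glomerulus, went opposite ways between BB-p53n DMSO and p53n cells. Col4a4 was at 2.1, 1.49 and 1.66 CPM in BB-p53n EZH2i and 3.73, 3.97 and 3.95 CPM in BB-p53n DMSO libraries. p53n cells held it at 1.04, 0.957 and 0.589 CPM. Col4a3 was at 0.476, 0.319 and 0.19 CPM in BB-p53n EZH2i and 1.46, 1.36 and 1.6 CPM in BB-p53n DMSO libraries. The level in p53n was 2.88, 2.37 and 2.36 CPM. The groups did not overlap for either gene, Col4a4 being highest in BB-p53n DMSO and Col4a3 highest in p53n libraries. In BB-p53n DMSO against p53n cells Col4a4 rose (log2 fold change 2.15 ± 0.24 SE, adjusted p = 1.3e-07) while Col4a3 fell (log2 fold change -0.78 ± 0.25 SE, adjusted p = 0.0087). The fall of Col4a3 rests on 147 counts in BB-p53n DMSO and 196 in p53n libraries and missed the threshold without p53n replicate 1 (log2 fold change -0.60, adjusted p = 0.085). With EZH2 inhibition both fell (Col4a4: log2 fold change -1.13 ± 0.23 SE, adjusted p = 0.00014, -1.01 with the trend removed; Col4a3: log2 fold change -2.12 ± 0.34 SE, adjusted p = 1.4e-05, -1.95). The exons of Col4a3 share 5.65% of their length with C430014B12Rik on the other strand, and the counting did not use strand.

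The X-linked pair was lower in both PDGF-BB groups. Col4a5 was at 4.68, 3.73 and 3.04 CPM in BB-p53n EZH2i and 4.57, 6.66 and 6.08 CPM in BB-p53n DMSO libraries. Libraries of p53n cells stood at 17.6, 19.2 and 16.7 CPM. Every p53n library lay above every PDGF-BB library, and the inhibited and vehicle libraries overlapped. Col4a6 was at 0, 0 and 0.0951 CPM in BB-p53n EZH2i and 0.0896, 0.0296 and 0.185 CPM in BB-p53n DMSO libraries. For p53n the values were 3.37, 3.95 and 3.03 CPM. Its sums were 2 counts in BB-p53n EZH2i, 10 in BB-p53n DMSO and 264 in p53n libraries, so that it was close to silent in PDGF-BB cells. In BB-p53n DMSO against p53n cells Col4a5 fell (log2 fold change -1.63 ± 0.15 SE, adjusted p = 5.1e-09). The log2 fold change of Col4a6 there was -5.04, given as a description because it passed the filter on low counts through the p53n libraries alone. In BB-p53n EZH2i against BB-p53n DMSO cells Col4a5 fell further (log2 fold change -0.58 ± 0.17 SE, adjusted p = 0.0048, and -0.72 with the trend removed). Col4a6 did not pass the threshold at these counts (log2 fold change -1.57 ± 1.05 SE, adjusted p = 0.19, and -1.80 with the trend removed). It did without BB-p53n EZH2i replicate 3 (log2 fold change -4.54, adjusted p = 0.035). That was the only inhibited library with any count, so leaving it out could only deepen the fall, and this pass is a description. Over the 575 tested genes of the X chromosome the median log2 fold change was -0.44 in the inhibitor comparison and -0.09 in BB-p53n DMSO against p53n. The part of Xist and of the sex-linked difference between cultures was not tested.

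**Figure D2:**
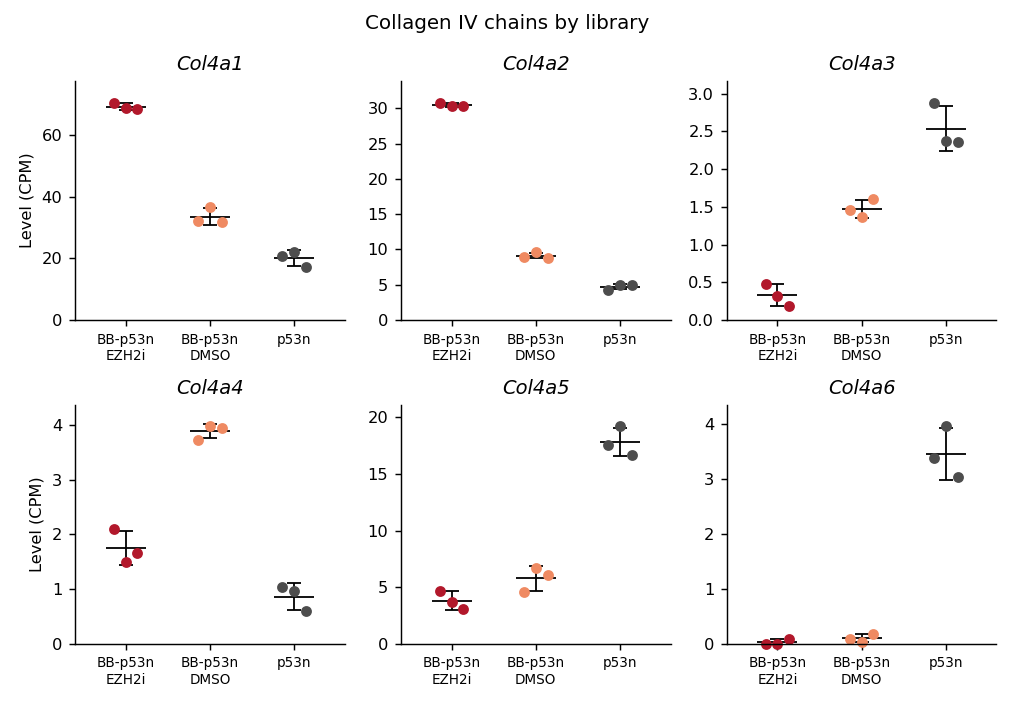
Levels of the 6 collagen IV genes in CPM (vertical axis, each panel with its own scale from 0) in every library of BB-p53n EZH2i, BB-p53n DMSO and p53n cells; points are libraries, and the line and bars are mean and SD. Col4a1 and Col4a2 step up toward the inhibited libraries, Col4a4 peaks in the BB-p53n DMSO libraries, and Col4a5 and Col4a6 are highest in the p53n libraries.

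Among the fibrillar chains, which include the cartilage collagens and the chains that start fibre growth, Col11a1 had the highest level per length in every group. Col11a1 (ENSMUSG00000027966, chromosome 3, 113824189 to 114014367 on the plus strand of GRCm39) was at 136.1, 163.8 and 136.1 CPM in BB-p53n EZH2i and 532.9, 595.2 and 512.4 CPM in BB-p53n DMSO libraries. The p53n libraries had 194, 207.9 and 186.9 CPM. The vehicle-treated PDGF-BB libraries lay far above the others, and the inhibited libraries lay below the p53n ones. Col11a1 rose in BB-p53n DMSO against p53n cells (log2 fold change 1.48 ± 0.08 SE, adjusted p = 1.2e-12) and fell in BB-p53n EZH2i against BB-p53n DMSO cells (log2 fold change -1.91 ± 0.08 SE, adjusted p = 1.3e-13; -1.28 with the trend removed). In BB-p53n EZH2i against p53n cells it was lower (log2 fold change -0.43 ± 0.08 SE, adjusted p = 4.6e-05), a difference that was no longer there with the trend removed (0.10, adjusted p = 0.24). Its partner Col11a2, the other cartilage collagen XI chain, was at 12.6, 9.96 and 12.6 CPM in BB-p53n EZH2i and 14.3, 15 and 11.7 CPM in BB-p53n DMSO libraries. Its p53n values were 33.5, 34.2 and 35.9 CPM. It was lower in every PDGF-BB library than in every p53n library (log2 fold change -1.34 ± 0.11 SE, adjusted p = 8.3e-10) and the PDGF-BB groups overlapped (log2 fold change -0.22 ± 0.12 SE, adjusted p = 0.097; -0.79, adjusted p = 2.5e-06 with the trend removed). It also passed the threshold in that comparison, at log2 fold changes of -0.29 to -0.32, when p53n replicate 1, p53n replicate 3 or BB-p53n DMSO replicate 3 was left out. Per length, Col11a1 exceeded Col11a2 by 6.85 ± 1.75 times in BB-p53n EZH2i, 21.7 ± 1.74 times in BB-p53n DMSO and 3.07 ± 0.242 times in p53n libraries.

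Collagen V, whose chains start the growth of collagen I fibres, split by chain. Col5a1 was at 68.9, 56.1 and 56.8 CPM in BB-p53n EZH2i and 32.4, 36.3 and 34.6 CPM in BB-p53n DMSO libraries. Without PDGF-BB, p53n libraries gave 17.8, 17.5 and 14.7 CPM. It climbed over the groups without overlap, rising in BB-p53n DMSO against p53n cells (log2 fold change 1.04 ± 0.10 SE, adjusted p = 9.5e-09) and again with the inhibitor (log2 fold change 0.82 ± 0.09 SE, adjusted p = 1.3e-07; 0.37 with the trend removed). Its usual partner Col5a2 was at 0.0396, 0.106 and 0 CPM in BB-p53n EZH2i and 0.0896, 0.118 and 0 CPM in BB-p53n DMSO libraries. p53n cells held it at 2.6, 1.83 and 2.23 CPM. Its counts summed to 3 in BB-p53n EZH2i, 7 in BB-p53n DMSO and 172 in p53n libraries, and the count ratio of BB-p53n DMSO to p53n was 0.0313 (95% interval 0.0124 to 0.0658, counting error only). Since Col5a2 passed the filter on low counts through the p53n libraries alone, its fold change is a description (log2 fold change -4.90 in BB-p53n DMSO over p53n). It lies 24.6 kb from Col3a1, which was near 0 in every group. Col5a3 was at 9.04, 4.9 and 8.61 CPM in BB-p53n EZH2i and 8.27, 6.45 and 6.69 CPM in BB-p53n DMSO libraries. The level in p53n was 5.83, 4.83 and 4.42 CPM. The groups of PDGF-BB cells overlapped (log2 fold change 0.09 with the inhibitor, adjusted p = 0.69), but with the trend removed Col5a3 was lower with the inhibitor (-0.50, adjusted p = 0.023). The call against p53n (log2 fold change 0.50 ± 0.19 SE, adjusted p = 0.027) was lost without BB-p53n DMSO replicate 1 (0.40, adjusted p = 0.11), without p53n replicate 2 (0.48, 0.083), without p53n replicate 3 (0.50, 0.056) and with the trend removed (0.32, 0.12). Col27a1, another cartilage collagen, was at 11.4, 10.3 and 10.9 CPM in BB-p53n EZH2i and 8.72, 9.24 and 7.03 CPM in BB-p53n DMSO libraries. Libraries of p53n cells stood at 14.5, 15.4 and 16.1 CPM. It was lowest in BB-p53n DMSO (log2 fold change -0.88 ± 0.12 SE, adjusted p = 1.6e-06 against p53n), and its rise with the inhibitor (log2 fold change 0.39 ± 0.12 SE, adjusted p = 0.0083) was lost without BB-p53n DMSO replicate 3 (0.28, adjusted p = 0.077) and with the trend removed (0.17, 0.23). Col2a1, the partner of collagens IX and XI in cartilage, was at most 1.14 CPM in any library and passed in none of the 3 comparisons.

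Of the 9 fibril-associated chains, 2 were higher and 6 lower in BB-p53n DMSO against p53n cells, where 35.3% of all genes were higher and 34.0% lower. Col19a1, a collagen made by some neurons during synapse formation, had the largest rise among the members. Col19a1 (ENSMUSG00000026141, chromosome 1, 24300971 to 24626553 on the minus strand of GRCm39) was at 19, 13.1 and 14.7 CPM in BB-p53n EZH2i and 60.9, 49.4 and 58.2 CPM in BB-p53n DMSO libraries. For p53n the values were 0.972, 2.37 and 2.23 CPM. The vehicle-treated PDGF-BB libraries lay far above the p53n libraries (log2 fold change 4.95 ± 0.24 SE, adjusted p = 6e-09), and the inhibited libraries lay between (log2 fold change -1.84 ± 0.18 SE, adjusted p = 3.4e-06; -1.46 with the trend removed). The neighbouring gene Col9a1, 9.2 kb away, was at 26.7, 25.1 and 21.9 CPM in BB-p53n EZH2i and 39.5, 45.4 and 43.2 CPM in BB-p53n DMSO libraries. The p53n libraries had 32, 34.1 and 32.8 CPM. It was likewise highest in BB-p53n DMSO, with smaller steps (log2 fold change 0.37 ± 0.09 SE, adjusted p = 0.00075 in BB-p53n DMSO against p53n; log2 fold change -0.80 ± 0.09 SE, adjusted p = 9.6e-08 in BB-p53n EZH2i against BB-p53n DMSO, -1.11 with the trend removed), but its inhibited libraries lay below the p53n ones. The other chains of the collagen IX trimer went the other way. Col9a3 was at 18, 14.1 and 18.7 CPM in BB-p53n EZH2i and 15.4, 18.3 and 13.5 CPM in BB-p53n DMSO libraries. Its p53n values were 66.6, 61.4 and 62.8 CPM. Col9a2 was at 7.14, 6.34 and 5.19 CPM in BB-p53n EZH2i and 7.82, 6.37 and 6.29 CPM in BB-p53n DMSO libraries. Without PDGF-BB, p53n libraries gave 13.3, 13 and 14 CPM. Both were lower in all PDGF-BB libraries than in all p53n libraries (Col9a3: log2 fold change -2.01 ± 0.11 SE, adjusted p = 2.6e-12; Col9a2: log2 fold change -0.98 ± 0.13 SE, adjusted p = 1.7e-06), and the PDGF-BB groups overlapped. With the inhibitor neither passed (Col9a3: log2 fold change 0.11 ± 0.12 SE, adjusted p = 0.4; Col9a2: log2 fold change -0.13 ± 0.14 SE, adjusted p = 0.42), but with the trend removed both fell (Col9a3: -0.66, adjusted p = 2e-05; Col9a2: -0.96, 1.3e-05). Per length, Col9a1 was 1.12 ± 0.231 times Col9a3 in BB-p53n EZH2i, 2.09 ± 0.301 times in BB-p53n DMSO and 0.395 ± 0.0285 times in p53n libraries. Of the exon length of Col9a3, 6.07% overlaps Tcfl5 on the other strand.

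Col12a1, which binds collagen I fibres, was at 1.11, 1.86 and 1.43 CPM in BB-p53n EZH2i and 3.02, 3.79 and 4.16 CPM in BB-p53n DMSO libraries. p53n cells held it at 12.9, 14.1 and 12.6 CPM. It stepped down without overlap, in BB-p53n DMSO against p53n (log2 fold change -1.85 ± 0.16 SE, adjusted p = 1.4e-09) and with the inhibitor (log2 fold change -1.34 ± 0.21 SE, adjusted p = 6.3e-06; -0.63 with the trend removed). Col16a1 was at 96.2, 78.3 and 91.8 CPM in BB-p53n EZH2i and 73.9, 79.5 and 65.3 CPM in BB-p53n DMSO libraries. The level in p53n was 68.6, 60.9 and 71.8 CPM. The groups overlapped, except that inhibited libraries lay above p53n ones, and its direction with the inhibitor turned with the processing (log2 fold change 0.29 ± 0.09 SE, adjusted p = 0.0076; -0.31, adjusted p = 0.011 with the trend removed). The rise also missed the threshold without p53n replicate 1 (0.21, adjusted p = 0.053) or BB-p53n DMSO replicate 3 (0.21, 0.071), and without p53n replicate 3 Col16a1 passed as higher in BB-p53n DMSO against p53n (0.26, adjusted p = 0.036). Col22a1, a collagen of tissue junctions, was at 3.25, 4.85 and 3 CPM in BB-p53n EZH2i and 1.64, 1.39 and 1.14 CPM in BB-p53n DMSO libraries. Libraries of p53n cells stood at 1.8, 2.87 and 3.24 CPM. It was lowest in BB-p53n DMSO libraries and rose with the inhibitor (log2 fold change 1.40 ± 0.26 SE, adjusted p = 6.6e-05; 1.31). Its difference from p53n (log2 fold change -0.91 ± 0.26 SE, adjusted p = 0.0047) was not called without p53n replicate 3 (-0.65, adjusted p = 0.066). The low-count members Col14a1, another binder of collagen I fibres, and Col20a1 were lower in BB-p53n DMSO than in p53n (log2 fold changes; Col14a1: -3.50; Col20a1: -1.31), with at most 1.70 CPM in any PDGF-BB library. With the inhibitor Col20a1 was not called (-0.38) unless the trend was removed (-0.97, adjusted p = 0.0083).

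**Figure D3:**
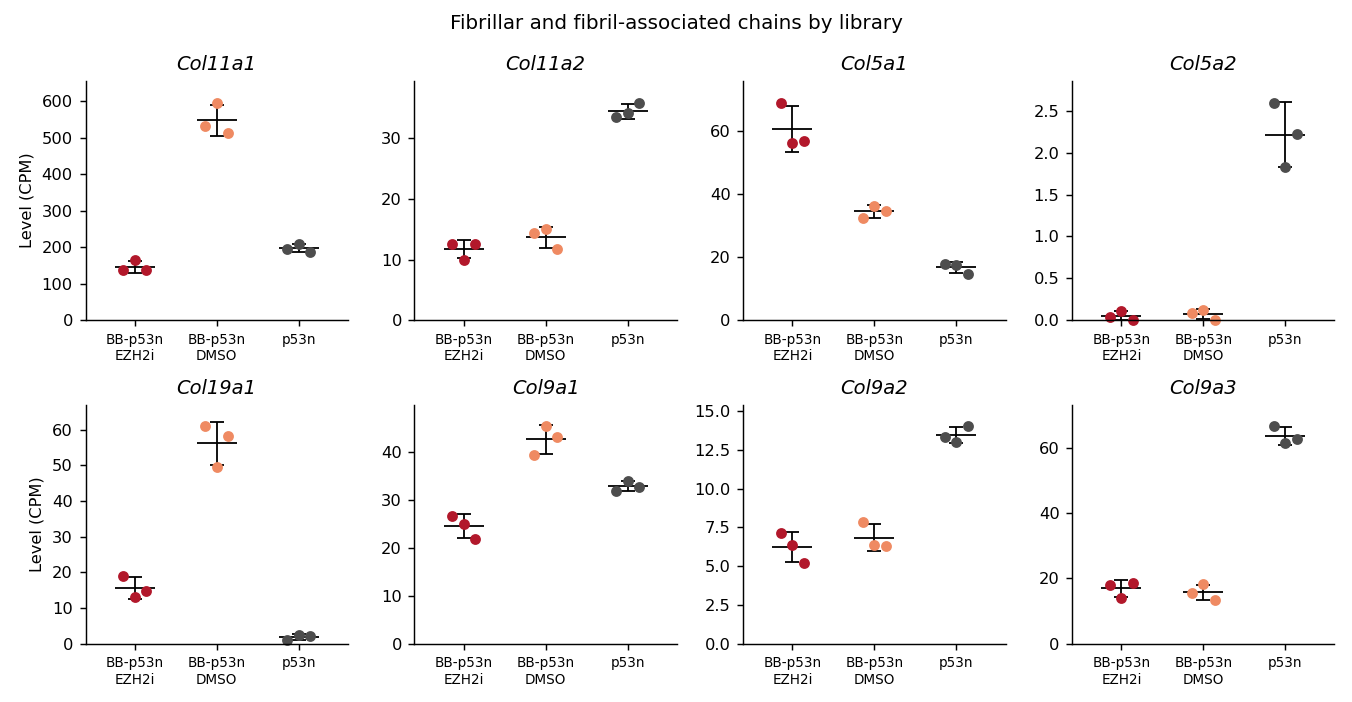
Levels of 8 fibrillar and fibril-associated chains in CPM (vertical axis, each panel with its own scale from 0) in every library of BB-p53n EZH2i, BB-p53n DMSO and p53n cells; points are libraries, and the line and bars are mean and SD. Col11a1 and Col19a1 peak in the BB-p53n DMSO libraries, as does Col9a1, whereas Col11a2, Col9a2 and Col9a3 are highest in the p53n libraries.

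Collagen VI forms beaded filaments from the products of Col6a1, Col6a2 and a longer partner chain such as that of Col6a3. Col6a1 was at 5.51, 6.55 and 3.66 CPM in BB-p53n EZH2i and 10.3, 15.1 and 11.9 CPM in BB-p53n DMSO libraries. For p53n the values were 10.7, 11 and 10.1 CPM. The inhibited libraries lay below all others (log2 fold change -1.25 ± 0.18 SE, adjusted p = 3.7e-06; -1.91 with the trend removed), and BB-p53n DMSO and p53n overlapped (log2 fold change 0.23 ± 0.16 SE, adjusted p = 0.21). Col6a2 was at 9.95, 9.43 and 9.89 CPM in BB-p53n EZH2i and 4.75, 5.71 and 4.75 CPM in BB-p53n DMSO libraries. The p53n libraries had 5.45, 8.03 and 6.02 CPM. The inhibited libraries lay above all others (log2 fold change 0.94 ± 0.15 SE, adjusted p = 1.1e-05; 0.60), opposite to Col6a1, and per length Col6a1 was 1.03 ± 0.31 times Col6a2 in BB-p53n EZH2i, 4.63 ± 0.472 times in BB-p53n DMSO and 3.16 ± 0.559 times in p53n libraries. The difference of Col6a2 from p53n in BB-p53n DMSO cells (log2 fold change -0.35 ± 0.15 SE, adjusted p = 0.049) did not outlast the removal of BB-p53n EZH2i replicate 1 or 3, BB-p53n DMSO replicate 1 or 3, or p53n replicate 2 or 3 (-0.17 to -0.33, adjusted p = 0.054 to 0.37). Col6a3 was at most 0.505 CPM in any library and passed in no comparison.

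Col18a1, a basement membrane collagen that carries endostatin at its end, was at 7.29, 7.24 and 9.32 CPM in BB-p53n EZH2i and 4.6, 4.23 and 3.64 CPM in BB-p53n DMSO libraries. Its p53n values were 4.34, 4.54 and 5.34 CPM. The inhibited libraries lay above all others (log2 fold change 0.93 ± 0.16 SE, adjusted p = 2.3e-05), but with the trend removed the difference was 0.35 (adjusted p = 0.054), and BB-p53n DMSO and p53n overlapped (log2 fold change -0.19 ± 0.16 SE, adjusted p = 0.32). Col25a1, a membrane-spanning collagen first described in amyloid plaques, was at 1.19, 0.905 and 2.33 CPM in BB-p53n EZH2i and 5.08, 5.63 and 5.3 CPM in BB-p53n DMSO libraries. Without PDGF-BB, p53n libraries gave 0.659, 0.541 and 0.294 CPM. It was highest in BB-p53n DMSO without overlap, rising against p53n (log2 fold change 3.38 ± 0.31 SE, adjusted p = 4.2e-09) and falling with the inhibitor (log2 fold change -1.85 ± 0.26 SE, adjusted p = 2.6e-06; -0.95 with the trend removed). The membrane-spanning Col23a1, at 0.746 to 2.19 CPM, was lower in BB-p53n DMSO relative to p53n (-0.95) and higher with the inhibitor (0.97, adjusted p = 0.0027; 0.48, 0.14 with the trend removed), beside a median of 0.33 with the inhibitor over the tested genes of its chromosome 11. Col28a1, at 0.190 to 3.49 CPM, fell in both comparisons (-1.62 with the inhibitor, -1.66 with the trend removed; -1.28 in BB-p53n DMSO against p53n).

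Of the 5 laminin alpha chains 3 were tested, and all 3 were higher in BB-p53n DMSO against p53n, beside 35.3% of all genes. The untested ones, Lama2 and Lama3, had fewer counts relative to library size in BB-p53n DMSO than in p53n. Lama4 makes the alpha chain of vessel wall laminins. Lama4 (ENSMUSG00000019846, chromosome 10, 38841511 to 38986184 on the plus strand of GRCm39) was at 138.3, 145.1 and 145.4 CPM in BB-p53n EZH2i and 169, 169.4 and 174.6 CPM in BB-p53n DMSO libraries. p53n cells held it at 48.4, 47.3 and 43.2 CPM. Every PDGF-BB library lay far above every p53n library (log2 fold change 1.88 ± 0.07 SE, adjusted p = 1.9e-15), and the inhibited libraries were slightly lower than the vehicle ones (log2 fold change -0.26 ± 0.07 SE, adjusted p = 0.0013), a difference that turned to 0.08 (adjusted p = 0.22) with the trend removed. Lama1, the alpha chain of the earliest embryonic basement membranes, was at 21, 17 and 19 CPM in BB-p53n EZH2i and 15.1, 14.7 and 16.3 CPM in BB-p53n DMSO libraries. The level in p53n was 9.82, 11.3 and 7.7 CPM. Its groups did not overlap (log2 fold change 0.67 ± 0.13 SE, adjusted p = 9.6e-05 in BB-p53n DMSO against p53n), but the rise with the inhibitor (log2 fold change 0.31 ± 0.12 SE, adjusted p = 0.028) was lost with the trend removed (0.14, adjusted p = 0.31) and without BB-p53n EZH2i replicate 1 or 3, BB-p53n DMSO replicate 1 or 2, or p53n replicate 1 or 3 (0.23 to 0.32, adjusted p = 0.057 to 0.11). Lama5, the most widespread alpha chain of adult tissues, was at 20.9, 19.6 and 21.6 CPM in BB-p53n EZH2i and 22.2, 21.6 and 23.4 CPM in BB-p53n DMSO libraries. Libraries of p53n cells stood at 16.4, 20 and 14.1 CPM. It was higher in BB-p53n DMSO relative to p53n without overlap (log2 fold change 0.41 ± 0.11 SE, adjusted p = 0.0023) and did not pass with the inhibitor (log2 fold change -0.11 ± 0.11 SE, adjusted p = 0.36), except with the trend removed (-0.43, adjusted p = 0.00043). Lama2, the alpha chain of muscle and Schwann cell basement membranes, and Lama3, that of skin, were not tested. Lama2 had 8 counts in BB-p53n EZH2i, 8 in BB-p53n DMSO and 19 in p53n libraries. Its count ratio of BB-p53n DMSO to p53n was 0.324 (95% interval 0.123 to 0.774, counting error only). Lama3 had 2 counts in BB-p53n EZH2i, 9 in BB-p53n DMSO and 60 in p53n libraries, a count ratio of BB-p53n DMSO to p53n of 0.115 (95% interval 0.0503 to 0.234, counting error only).

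Of the 3 beta chains, Lamb1 and Lamb2 were lower in BB-p53n DMSO against p53n, beside 34.0% of all genes, and Lamb3 was higher. Lamb1 and Lamb2 were higher with the inhibitor, beside 37.3% of all genes. Lamb1, the beta chain of early embryonic laminins, was at 28.9, 30.5 and 28.5 CPM in BB-p53n EZH2i and 16.4, 16.5 and 14.1 CPM in BB-p53n DMSO libraries. For p53n the values were 20.6, 21.2 and 19.5 CPM. The 3 groups did not overlap, with BB-p53n DMSO lowest (log2 fold change -0.38 ± 0.09 SE, adjusted p = 0.0012 against p53n) and the inhibited libraries highest (log2 fold change 0.90 ± 0.09 SE, adjusted p = 3.1e-08; 0.84 with the trend removed). Lamb2, the beta chain of synaptic and kidney basement membranes, was at 3.77, 3.67 and 3.85 CPM in BB-p53n EZH2i and 2, 2.43 and 2.31 CPM in BB-p53n DMSO libraries. The p53n libraries had 11.6, 14.4 and 9.76 CPM. Both PDGF-BB groups lay well below p53n (log2 fold change -2.40 ± 0.17 SE, adjusted p = 5.9e-11 for BB-p53n DMSO), and the rise with the inhibitor (log2 fold change 0.74 ± 0.18 SE, adjusted p = 0.0012) was lost with the trend removed (0.13, adjusted p = 0.53). Lamb3, a chain of skin laminin, was at 1.27, 1.28 and 2.09 CPM in BB-p53n EZH2i and 1.43, 1.15 and 1.36 CPM in BB-p53n DMSO libraries. Its p53n values were 0.382, 0.5 and 0.21 CPM. It was higher in BB-p53n DMSO relative to p53n (log2 fold change 1.84 ± 0.38 SE, adjusted p = 0.00021) and did not pass with the inhibitor (log2 fold change 0.23 ± 0.31 SE, adjusted p = 0.52; -0.25, adjusted p = 0.51 with the trend removed).

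Lamc1 makes the gamma chain shared by most laminins. Lamc1 (ENSMUSG00000026478, chromosome 1, 153094668 to 153208532 on the minus strand of GRCm39) was at 252.4, 264.9 and 232.5 CPM in BB-p53n EZH2i and 246.5, 269.7 and 262 CPM in BB-p53n DMSO libraries. Without PDGF-BB, p53n libraries gave 137.4, 146.6 and 129.9 CPM. Every PDGF-BB library lay above every p53n library (log2 fold change 0.91 ± 0.07 SE, adjusted p = 3.3e-10), while the inhibited and vehicle libraries overlapped (log2 fold change -0.05 ± 0.07 SE, adjusted p = 0.49; -0.26, adjusted p = 6e-04 with the trend removed). Per length, Lama4 was 0.393 ± 0.0308 times Lamc1 in BB-p53n EZH2i, 0.452 ± 0.0201 times in BB-p53n DMSO and 0.23 ± 0.0102 times in p53n libraries, and Lamb1 was 0.098 ± 0.00383 times Lamc1 in BB-p53n EZH2i, 0.0504 ± 0.00527 times in BB-p53n DMSO and 0.124 ± 0.00241 times in p53n libraries. The summed level of the 11 laminin genes was 467.9 ± 14.6 CPM in BB-p53n EZH2i, 487.8 ± 12.9 CPM in BB-p53n DMSO and 245.2 ± 17.8 CPM in p53n libraries. Lamc1 and Lama4 made up 83.9 ± 0.86% of this laminin CPM in BB-p53n EZH2i, 88.2 ± 0.35% in BB-p53n DMSO and 75.2 ± 1.23% in p53n libraries. The higher laminin sum in PDGF-BB libraries thus mainly follows Lamc1 and Lama4 and does not describe the laminins as a class. The summed level of the 44 collagen genes was 533.1 ± 16.3 CPM in BB-p53n EZH2i, 899.1 ± 58.0 CPM in BB-p53n DMSO and 554.3 ± 10.1 CPM in p53n libraries. Col11a1 alone made up 27.3 ± 3.36% of this collagen CPM in BB-p53n EZH2i, 60.8 ± 0.86% in BB-p53n DMSO and 35.4 ± 1.27% in p53n libraries. The higher collagen sum in BB-p53n DMSO thus follows Col11a1 and does not describe the collagens as a class.

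**Figure D4:**
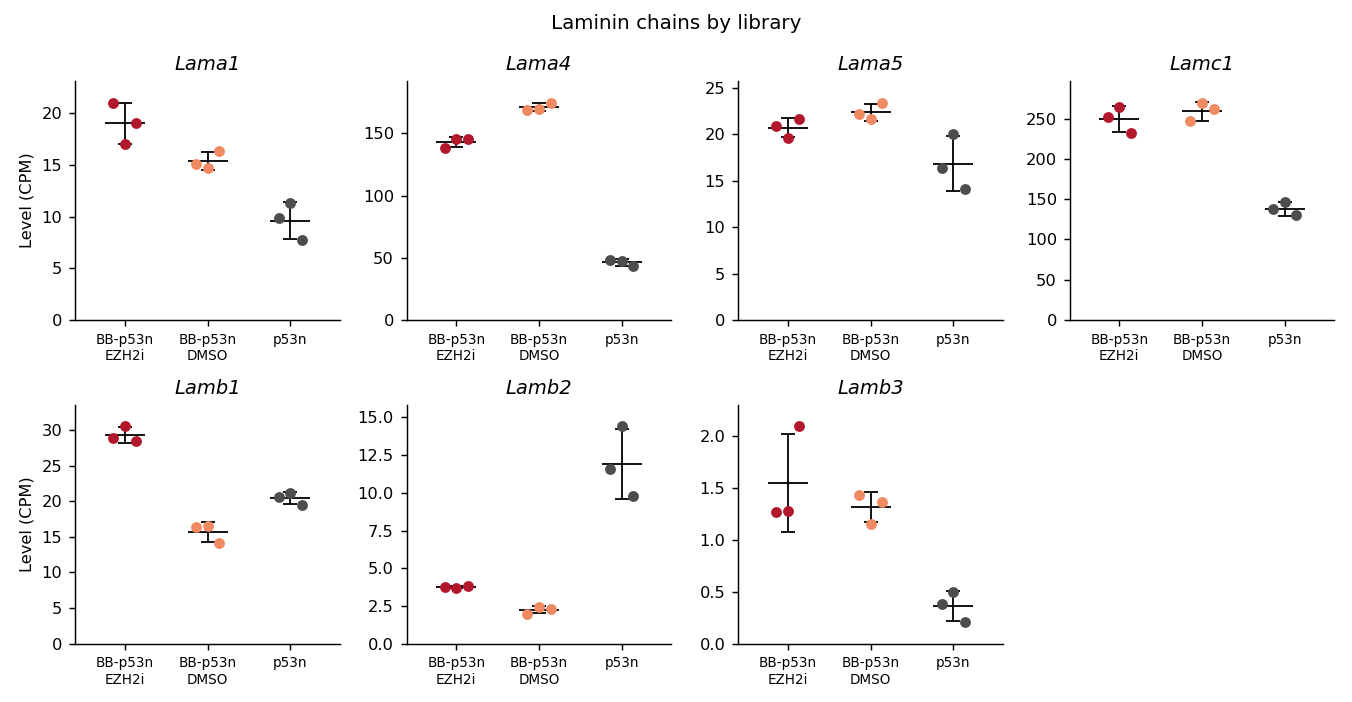
Levels of 7 laminin genes in CPM (vertical axis, each panel with its own scale from 0) in every library of BB-p53n EZH2i, BB-p53n DMSO and p53n cells; points are libraries, and the line and bars are mean and SD. Lama4 and Lamc1 are higher in all PDGF-BB libraries than in all p53n libraries, Lamb2 is lower, and Lamb1 is highest in the inhibited libraries.

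The inhibited cells were also set against p53n cells, a comparison that the study did not name and that shares libraries with both others. At the same threshold 18 members (45.0%, against 40.3% of all genes) were higher and 17 (42.5%, against 41.7%) lower, and with the trend removed 11 (27.5%, against 36.7% of all genes) were higher and 18 (45.0%, against 41.8%) lower. Among the 26 members that reached an average log2 CPM of 1, the widest gaps upward were those of Col19a1 (3.11 ± 0.25 SE), Col4a2 (2.69 ± 0.11 SE), Col5a1 (1.86 ± 0.10 SE) and Col4a1 (1.78 ± 0.09 SE). The widest downward were those of Col12a1 (-3.19 ± 0.19 SE), Col4a5 (-2.21 ± 0.16 SE), Col9a3 (-1.90 ± 0.11 SE) and Lamb2 (-1.66 ± 0.16 SE), with adjusted p of at most 8.2e-09, as for the upward ones other than Col19a1 (3.8e-07). This order changed with the trend removed, where the widest upward were Col19a1 (3.37), Col25a1 (2.38), Col4a2 (1.94) and Lama4 (1.84), ahead of Col5a1 (1.31) and Col4a1 (1.18). The widest downward were then Col9a3 (-2.81), Col12a1 (-2.57), Col4a5 (-2.50) and Lamb2 (-2.38).

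The remaining members were rare. Of the 40 tested genes, Col7a1, the anchoring fibril collagen of skin, and Col15a1 were at most 1.57 CPM in any library, and neither passed in the comparisons of BB-p53n DMSO with p53n or of BB-p53n EZH2i with BB-p53n DMSO, although Col15a1 did with the inhibitor without BB-p53n EZH2i replicate 2 (0.97, adjusted p = 0.035). Col1a1 was not called in BB-p53n DMSO against p53n (log2 fold change 0.92 ± 0.44 SE, adjusted p = 0.071) but was without p53n replicate 2 (1.39, adjusted p = 0.027) or BB-p53n DMSO replicate 1 (1.20, 0.028). The 15 genes with too few counts to test were Col1a2, Col3a1, Col6a4, Col6a5, Col6a6, Col8a1, Col8a2, Col10a1, Col13a1, Col17a1, Col24a1, Col26a1, Lama2, Lama3 and Lamc3. Among them Col8a2, a collagen of the cornea's Descemet membrane singled out here after its values were seen, had 38 counts in BB-p53n EZH2i, 2 in BB-p53n DMSO and 7 in p53n libraries. Its count ratio of BB-p53n EZH2i to BB-p53n DMSO was 29.1 (95% interval 7.53 to 249.2, counting error only).

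The genes that modify, fold, cut, crosslink or bind these chains were given by a list of 43, of which 39 were tested. With the inhibitor 24 of the 39 (61.5%, against 37.3% of all genes) rose and 8 (20.5%, against 35.6%) fell, with a median log2 fold change of 0.49. With the trend removed, 15 (38.5%, against 29.0% of all genes) rose and 14 (35.9%, against 28.9%) fell, with a median of 0.09. The lowest adjusted p belonged to Colgalt1, which adds galactose to collagen hydroxylysine (172.7 ± 13.9 CPM in BB-p53n EZH2i, 91 ± 4.63 CPM in BB-p53n DMSO libraries; log2 fold change 0.92 ± 0.07 SE, adjusted p = 6e-10; 0.36 with the trend removed), and to Mia3, the receptor that loads procollagen into transport vesicles (90.2 ± 1.35 CPM in BB-p53n EZH2i, 246.9 ± 8.98 CPM in BB-p53n DMSO libraries; log2 fold change -1.45 ± 0.06 SE, adjusted p = 1.9e-13; -0.89). In BB-p53n DMSO against p53n cells 20 (51.3%, against 35.3% of all genes) rose and 9 (23.1%, against 34.0%) fell, with a median of 0.29. There the lowest adjusted p belonged to Pcolce2, an enhancer of procollagen cleavage (32.1 ± 1.33 CPM in BB-p53n DMSO, 5.07 ± 0.586 CPM in p53n; log2 fold change 2.67 ± 0.11 SE, adjusted p = 1.4e-14), and to Sparc, a collagen-binding glycoprotein (213.1 ± 15.6 CPM in BB-p53n DMSO, 412.6 ± 30 CPM in p53n; log2 fold change -0.95 ± 0.07 SE, adjusted p = 2.2e-10). With the trend removed, 23 (59%, against 36.7% of all genes) rose and 9 (23.1%, against 41.8%) fell between BB-p53n EZH2i and p53n cells. Without that removal 24 (61.5%, against 40.3% of all genes) rose and 6 (15.4%, against 41.7%) fell. The lowest adjusted p belonged to Pcolce2 (log2 fold change 3.34 ± 0.11 SE, adjusted p = 2.6e-16) and to the collagen receptor Ddr2 (59.3 ± 3.26 CPM in BB-p53n EZH2i, 124 ± 5.72 CPM in p53n; log2 fold change -1.06 ± 0.07 SE, adjusted p = 1.9e-11; -0.32 with the trend removed).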

How the data were processed

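Polyadenylated RNA of 9 libraries in 3 groups was analysed. The authors deposited a table of raw counts, fragments per gene with no normalization, and per the file headers these came from featureCounts 1.6.3 on the Ensembl release 108 annotation of GRCm39, with a mapping quality of at least 20 and no strand option. The submitters' processing notes also name Trimmomatic and Subread; how the aligner was set is not given in the sources used here. Symbols and GC content were taken by gene identifier from GENCODE on GRCm38 (91.4% of the identifiers had a symbol), and promoters from RefSeq on GRCm38.p6. The collagen IV starts came from GENCODE on GRCm38. All coordinates except those of the promoters and of the collagen IV start regions are GRCm39.

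Genes were kept with filterByExpr, scaled by TMM and tested with the quasi-likelihood test of edgeR 4.0.16 (R 4.3.3) in 1 model over all 9 libraries, with Benjamini-Hochberg adjustment over 17001 genes and a threshold of 0.05. The trend on GC content and exon length was a smooth fit (mgcv 1.9.3) per library, over the tested genes with an average log2 CPM above 1. The scripts were tested on simulated data. Intervals and floors cover counting error only. Pairs of libraries of a group differed by a median chi-square of 1.41 to 4.26 per gene, more than sampling noise, and none was counted as a repeat. Exons of 16 of the 55 genes overlap those of another gene, by at most 6.27% of their length. Alternatives were DESeq2 1.42.0 and its size factors, no filter, fits on the groups compared, a replicate block, the trend removed, and each library left out. The members, lists and rules were chosen with earlier results of these data known: values in every library are given for members called at least once that reach an average log2 CPM of 1, and of the matrix assembly list the called gene with the smallest adjusted p in each direction. The values of 1 gene are not reported here; it is included in the counts, medians and sums.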

Additional observations from a re-analysis of the deposited data

How the results depend on the processing

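With the GC and length trend removed, 6 members rose and 18 fell in BB-p53n EZH2i (inhibited) against BB-p53n DMSO (vehicle) cells, and 11 rose in BB-p53n EZH2i against p53n, and with a replicate block added to that correction these counts were again 6, 18 and 11. Directions of called members turned under the correction for Lama4 (0.08 in both fits) and Col16a1 (-0.31, and -0.32 with the block) in BB-p53n EZH2i against BB-p53n DMSO. In BB-p53n EZH2i against p53n they turned for Col11a1 (0.10 in both fits), Col16a1 (-0.37 in both), Lama5 (-0.12 in both) and Col5a3 (-0.18, and -0.20 with the block). Among members not called, 2 turned in BB-p53n DMSO against p53n, 5 in inhibited against vehicle cells and 1 in BB-p53n EZH2i against p53n. The cause was not tested. A replicate block alone gave 14 higher and 18 lower in BB-p53n DMSO against p53n, 12 and 11 in inhibited against vehicle cells, and 17 and 17 in BB-p53n EZH2i against p53n, where Col15a1 lost its call (log2 fold change 0.88) and no other member's call changed. Deviations of same-numbered libraries correlated between -0.22 and 0.35. In inhibited against vehicle cells the same-numbered library was the best match for numbers 1 (0.35) and 2 (0.28) but not 3 (-0.01). With 3 libraries per group this cannot settle if the numbers pair the libraries there. DESeq2, its size factors in edgeR, no filter, and fits on the groups compared turned no called member's direction. Of those not called, Col23a1 and Col5a3 turned near 0 (-0.02 to -0.01). Some calls changed. With the inhibitor, Lama1, Col27a1 and Col16a1 lost theirs without the filter (adjusted p = 0.15, 0.075 and 0.057) and on the groups compared (0.072, 0.058 and 0.072). Col11a2 gained its call as lower in both (0.013 and 0.048). In BB-p53n DMSO against p53n, Col6a2 lost its call without the filter (0.15) and Col1a1 gained one on the groups compared (0.044). In BB-p53n EZH2i against p53n, Col15a1 lost its call in each setting. Leaving out each library in turn turned no called member's direction but that of 2, 5 and 3 members not called in BB-p53n DMSO against p53n, inhibited against vehicle cells and BB-p53n EZH2i against p53n, with 14 higher and 16 to 21 lower in BB-p53n DMSO against p53n, 11 to 13 and 11 to 12 in inhibited against vehicle cells, and 18 to 19 and 16 to 19 in BB-p53n EZH2i against p53n. These ranges run over all 55 genes and include genes too low to test with all libraries that passed the filter when a library was left out. Among the 40 tested members, none gained a call as lower in a comparison with p53n when a library was left out. Members with few counts are limited by depth: 3 counts in 1 library corresponded to 0.0868 to 0.154 CPM.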
